A study of Danio rerio with 49 samples.

Results

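The short arm side of zebrafish chromosome 4 was described by its replication timing. It was taken as the windows of chromosome 4 whose centre lies below position 28000000 of the GRCz11 genome build. The rule used position only, but the region was chosen with earlier results of these data known. There were 2725 such windows, 2.27% of the 120059 windows with a timing profile. Their centres ran from 280000 to 27990000, and together they spanned chr4:250000-28020001. Most of them, 97.8%, were 60 kb wide, the widths ran from 40 to 120 kb, and centres were usually 10 kb apart. Neighbouring windows therefore shared reads, and 458 windows laid end to end covered the same stretch.

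Replication timing is the order in which parts of a genome are copied during S phase. Early and late parts form domains along each chromosome, in which active, gene-rich chromatin tends to be copied early and compact chromatin late. Rif1 brings protein phosphatase 1 to origins of replication, where it opposes the kinase that activates the MCM helicase, and so it holds back the firing of late origins. The long arm of zebrafish chromosome 4 is known as a late-replicating arm, rich in repeats and heterochromatin, whereas the other side of the chromosome is ordinary gene-bearing chromatin. Before the mid-blastula transition the embryo runs through short cycles without gap phases, and the embryonic genome is largely silent.

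The embryos were of the Tab5 strain, either homozygous for the omf201 allele of *rif1* (labelled rif1 omf201/omf201, omf201 here) or wild type (WT). Embryos were taken at 4 stages: preMBT, at 2 to 2.5 hours post fertilisation (hpf); Shield, at 6 hpf; Bud, at 10 hpf; and the 24 hpf stage, for which the sorting protocol names 28 hpf instead. Whole embryos, pooled and unsorted, gave 3 omf201 and 3 WT libraries at preMBT, and 5 omf201 and 6 WT libraries at Shield. Sorted S-phase nuclei of whole embryos gave 4 libraries per genotype at both later stages, Bud and 24 hpf, and sorted G1 nuclei gave another 4 per genotype and stage. The embryos' tissues were mixed in every library. A homozygous parent is not mentioned in the labels, so whether maternal Rif1 was present is not given in the sources used here. The step from Shield to Bud changed the stage and the kind of sample together, and their effects cannot be told apart.

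Depth was 5902329 to 37365213 counts per library, and windows of the arm held 299.5 to 1917 counts on average, so counting error alone was 2.28% to 5.78% of an unsmoothed window. At Shield, 3 pairs of libraries (omf201 replicates 1 and 2, WT replicates 1 and 2, WT replicates 3 and 4) differed by no more than sampling noise, and each pair was counted as 1 sample, which left 4 samples of each genotype. Between preMBT libraries of a genotype chi-square over degrees of freedom was 0.953 to 1.10, close to sampling noise alone. All these pairs lay under the limit of 1.2 that merged the Shield pairs. Pairs were merged only where other pairs of the group lay above that limit, so the preMBT libraries were kept as 3. By the limit alone they would be 1 sample per genotype, so preMBT tests may rest on technical replicates. Nothing in the labels says that the replicates came from separate clutches, so p-values measure the spread between these samples, which may be technical. All samples of a genotype were divided by the same G1 reference, so genotype differences at different stages are not independent of each other.

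Timing is given as a z-score. For each library the smoothed ratio of S-phase (or whole-embryo) to G1 reads had the library's mean subtracted and was divided by its SD across windows, so 0 is the genome average and a higher value means earlier. The arm was mappable throughout: its windows covered 98.3% of the 10-kb positions, and the largest gap was 30 kb. On the long arm the windows covered 35.8% of positions, and 19.5% of them were 60 kb wide.

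By its mean z-score the arm was late before the mid-blastula transition relative to the rest of the genome, and from Shield on it was early. In omf201 the mean z-score of the arm was -0.147, -0.227 and -0.158 in the 3 preMBT samples. In WT it was -0.502, -0.469 and -0.534, below all omf201 samples. When the arm and the 24 other chromosomes were ranked from earliest to latest, it stood at 22 of 25 in omf201 and last of 25 in WT at preMBT. At Shield it stood first in both genotypes. At Bud it was 3 of 25 in omf201 and 2 of 25 in WT, and at 24 hpf 4 of 25 in omf201 and first in WT. The median window of the arm in omf201 at 24 hpf was nevertheless -0.0709. There 47.6% of the arm's windows were above 0, against 42.5% of windows on the other chromosomes. In WT at 24 hpf the median was 0.390, with 60.4% above 0 against 50.8%.

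**Figure D1:**
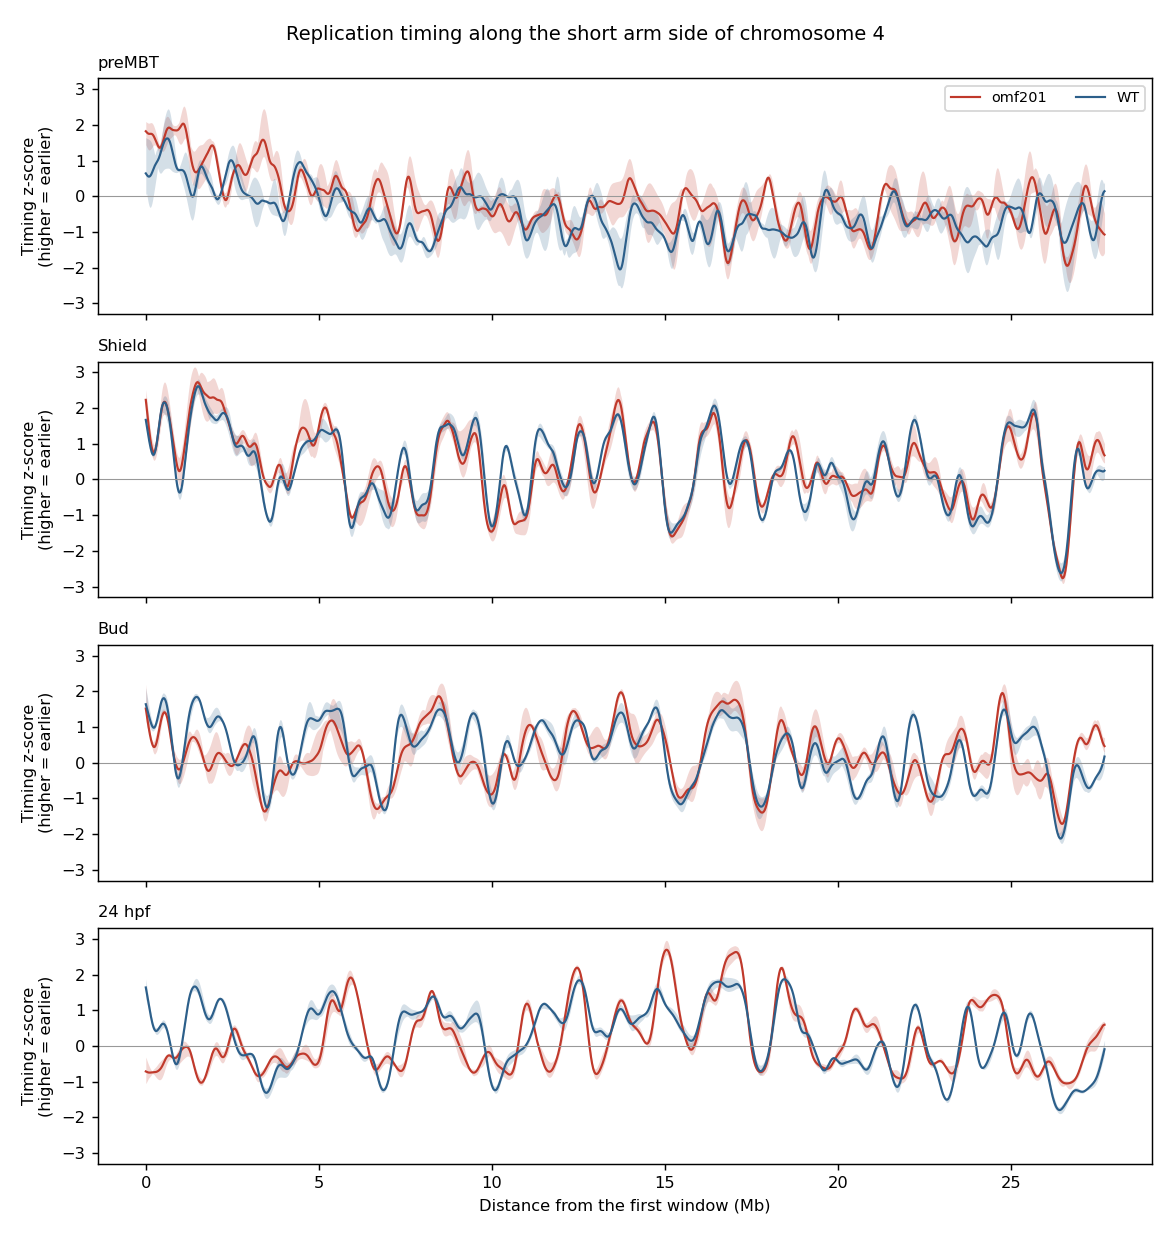
Mean z-score (higher is earlier) against the distance in Mb from the first window of the arm, for omf201 (red) and WT (blue) at each stage; lines are means of 3 samples per genotype at preMBT and 4 at the other stages, and shading runs from the lowest to the highest sample. At 24 hpf the omf201 line lies below the WT line at the left end, near the chromosome end, and above it at the right end.

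Averaged over samples, the arm stood at -0.177 ± 0.0436 in omf201 and -0.501 ± 0.0323 in WT at preMBT (SD, n = 3 each). At Shield the means were 0.343 ± 0.0269 in omf201 and 0.339 ± 0.0261 in WT (SD, n = 4 each). At Bud they were 0.233 ± 0.0195 in omf201 and 0.298 ± 0.0247 in WT, and at 24 hpf 0.211 ± 0.0174 in omf201 and 0.280 ± 0.0169 in WT (SD, n = 4 each). The genotypes did not overlap at preMBT, Bud and 24 hpf and overlapped at Shield.

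A two-sided exact permutation test over samples gave p = 0.1 for the preMBT difference of 0.324, the smallest p that 3 against 3 samples allow. The same exact permutation test gave p = 0.0286 for the differences of -0.0652 at Bud and -0.0689 at 24 hpf, the smallest p of 4 against 4, and p = 0.886 at Shield. Adjusted over the 4 stages these exact p-values were 0.133, 0.886, 0.0571 and 0.0571 in order of stage, so no difference of the arm's mean passed 0.05. On log2 ratios centred on each library's median the 24 hpf difference turned to 0.0176 and the Bud difference fell to -0.000519. On log2 ratios without centring, every omf201 sample lay below every WT sample at both stages. At 24 hpf these means were 0.0224 to 0.0288 in omf201 and 0.0406 to 0.0489 in WT. The direction of the difference at 24 hpf and its size at Bud therefore depended on the centring.

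Within each genotype the largest step of the arm's mean was between preMBT and Shield. It was 0.521 in omf201 and 0.841 in WT, with an exact permutation p = 0.0571 for each, the smallest that 4 against 3 samples allow. From Shield to Bud the mean changed by -0.111 in omf201 and by -0.0416 in WT, with exact permutation p = 0.0286 in omf201 and 0.0857 in WT. From Bud to 24 hpf it changed by -0.0212 in omf201 and -0.0174 in WT, with exact permutation p = 0.143 in omf201 and 0.314 in WT. No step passed after adjustment over the 6 steps, where the smallest adjusted exact p was 0.114.

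**Figure D2:**
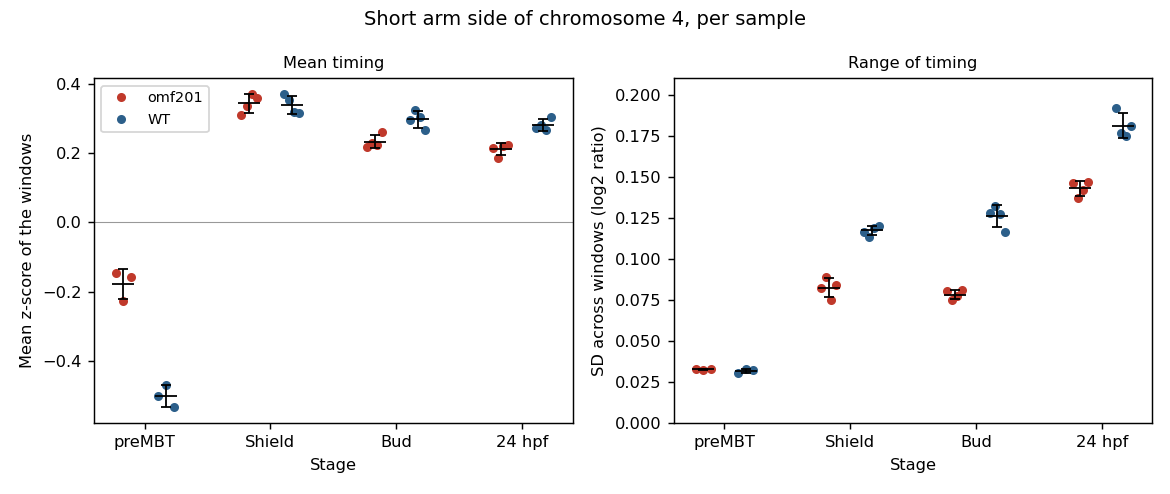
Left, mean z-score of the arm, and right, SD across its windows of the log2 ratio, for each sample (points) by stage, with omf201 in red left of WT in blue and black bars for the mean ± SD. The preMBT means lie below 0 in every sample, and from Shield on each omf201 sample has a smaller SD than every WT sample.

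The spread of the log2 ratios inside the arm was smaller in omf201 from Shield on. As SD across the arm's windows of the log2 ratio, it was 0.0825 in omf201 and 0.117 in WT at Shield, 0.0782 in omf201 and 0.126 in WT at Bud, and 0.143 in omf201 and 0.181 in WT at 24 hpf. The differences of -29.7%, -38.0% and -21.1% each had an exact permutation p of 0.0286 and an adjusted p of 0.0381 over the 4 stages, and no sample of the genotypes overlapped. At preMBT the SD was 0.0325 in omf201 and 0.0318 in WT, and the groups overlapped (exact permutation p = 0.4). The SD over all windows of the genome was also lower in omf201 at these 3 stages. It was 0.0823 in omf201 and 0.1195 in WT at Shield, 0.0992 and 0.155 at Bud, and 0.162 and 0.212 at 24 hpf. Expressed in z-scores, which divide by that genome-wide SD, the difference in the arm's SD turned positive at Shield and 24 hpf, to 0.0130 and 0.0245. A smaller range of timing relative to the genome was therefore not shown at Shield and 24 hpf. At Bud the arm's SD in z-scores stayed smaller in omf201, at 0.801 against 0.843 in WT, with no overlap of samples.

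By position, timing was described in 14 bins of 2 Mb counted from the chromosome end. In omf201 the bin from 0 to 2 Mb was the earliest of the arm at preMBT, at 1.5, and at Shield, at 1.59. At Bud the bin from 16 to 18 Mb was the earliest in omf201, at 0.759, and at 24 hpf it was so again, at 1.28. At 24 hpf the bin from 0 to 2 Mb was the latest in omf201, at -0.505. The first 2 Mb of the chromosome thus held the earliest bin of the mutant's arm at preMBT and Shield and its latest at 24 hpf.

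In WT the same bin was the earliest at preMBT, at 0.812, at Shield, at 1.36, and at Bud, at 1.10. At 24 hpf the bin from 16 to 18 Mb was the earliest in WT too, at 1.14. The bin from 26 to 28 Mb was the latest in WT at Bud, at -0.575, and at 24 hpf, at -1.03. At preMBT 3 of 14 bins were above 0 in omf201 and also 3 in WT, in both all within the first 6 Mb, and at Shield 11 of 14 in omf201 and 10 in WT.

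At preMBT the differences between genotypes ran almost all one way. Of the 2725 windows, 268 were called (9.83%, against 12.7% of all windows), at a Benjamini-Hochberg adjusted limma p under 0.05. Of these, 264 were higher in omf201 (9.69% of the arm's windows, against 6.47% of all windows) and 4 were lower (0.147%, against 6.27%). The median difference was 0.30 over the arm and 0.004 over all windows. Fewer of the arm's windows were called without any 1 of the 6 samples (4.44% to 6.28%) and with edgeR on counts (2.28%). The edgeR setting compared whole-embryo counts that were neither divided by G1 nor smoothed, so it is not the same measure. For these settings the shares of all windows are not given. The share of higher windows among calls, 98.5%, was the highest of the 25 units, of which the next had 92.4% and the lowest 12.4%.

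On z-scores the bins from 0 to 2 Mb and from 2 to 4 Mb had the largest preMBT differences, 0.692 and 0.696. The bin from 0 to 2 Mb had 1.51, 1.43 and 1.58 in the omf201 samples and 0.917, 0.693 and 0.825 in the WT samples, and 44 of its 168 windows were higher in omf201. The bin from 2 to 4 Mb had 0.859, 0.872 and 0.919 in the omf201 samples and 0.201, 0.341 and 0.0206 in the WT samples, and 69 of its 200 windows were higher. The genotypes did not overlap in either bin. In 7 of the 14 bins they did not overlap, all 7 with omf201 higher, against 42.5% of the 666 bins of the genome. On median-centred log2 values the order of the bins changed: the differences were 0.0288 from 14 to 16 Mb and 0.0283 from 24 to 26 Mb, against 0.0277 from 2 to 4 Mb and 0.0255 from 0 to 2 Mb.

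These preMBT differences depended on the G1 reference. When both genotypes were divided by 1 common reference, 11.6% of the arm's windows were called (the share of all windows is not given for this setting). Of these calls 91.1% were higher in omf201, and the difference of the arm's mean was 0.228. Of the 14 bins 4 changed direction. Those from 6 to 8 Mb and from 18 to 20 Mb, without overlap on separate references, turned to -0.184 and -0.127, that from 16 to 18 Mb turned to -0.291, and that from 26 to 28 Mb turned to 0.243. The largest difference was then 0.830 from 4 to 6 Mb, where it was 0.131 on separate references. The bin from 24 to 26 Mb followed at 0.567, with 0.490 from 2 to 4 Mb and 0.463 from 0 to 2 Mb.

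The longest run of adjacent windows called higher in omf201 at preMBT was chr4:3350000-3920001, with 52 windows. It was chosen by its preMBT calls, where it averaged 1.30 ± 0.517 in omf201 and -0.162 ± 0.326 in WT (SD, n = 3 each). At Shield it averaged 0.347 ± 0.137 in omf201 and -0.242 ± 0.155 in WT, and 32 of its windows were higher. At Bud it was the other way round, at -0.925 ± 0.128 in omf201 and -0.416 ± 0.160 in WT, with 30 windows lower (SD, n = 4 each). At 24 hpf omf201 was higher again, at -0.698 ± 0.0717 against -0.937 ± 0.0875 in WT (SD, n = 4 each). There 28 windows were higher and 14 lower. The only run called lower at preMBT had 4 windows of the arm and went on for 6 windows beyond the 28-Mb limit, to 28080001.

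At Shield the mean profiles of the genotypes were the most alike. Of the arm's windows 750 were called (27.5%, against 29.6% of all windows), 395 higher in omf201 (14.5%, against 15.2%) and 355 lower (13.0%, against 14.4%). The median difference was 0.0003 over the arm and -0.02 over all windows. Groups did not overlap in 3 of 14 bins, against 34.7% of bins genome-wide.

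The bin from 10 to 12 Mb stood out with 134 of its 200 windows lower in omf201. Its values were -0.764, -0.546, -0.449 and -0.549 in the omf201 samples and 0.201, 0.0644, 0.0705 and 0.111 in the WT samples. Every omf201 sample lay below 0 and every WT sample above. The longest run called lower, chr4:10470000-11160001 with 64 windows, lay in it and averaged -0.791 ± 0.202 in omf201 and 0.267 ± 0.0769 in WT (SD, n = 4 each). It was chosen by its Shield calls, so its genotype difference at Shield is a description. In this run the genotypes overlapped at the other 3 stages, and at 24 hpf it averaged -0.485 in omf201 and -0.423 in WT.

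At Bud 1308 windows were called (48.0%, against 43.9% of all windows), 556 higher in omf201 (20.4%, against 22.1%) and 752 lower (27.6%, against 21.8%). Lower windows were denser towards the chromosome end, though more of them lay outside the first 6 Mb than inside. In the first 6 Mb 325 of the 562 windows were lower and 7 were higher. In the other 11 bins, with 2163 windows, 549 were higher and 427 lower. Groups did not overlap in 7 of 14 bins (against 40.7% of bins genome-wide), 2 with omf201 higher and 5 lower.

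On z-scores the bin from 4 to 6 Mb had the largest Bud difference among the bins, -0.605. With 1 common G1 reference it was -0.334 there, and the bins from 26 to 28 Mb (0.635), 0 to 2 Mb (-0.589) and 2 to 4 Mb (-0.568) were among those that differed more. On median-centred log2 values the difference was 0.100 from 26 to 28 Mb and -0.0799 from 4 to 6 Mb. The bin from 4 to 6 Mb had z-scores of 0.220, 0.0544, 0.309 and 0.440 in the omf201 samples and 0.856, 0.879, 0.927 and 0.780 in the WT samples. At the other end, the bin from 26 to 28 Mb had -0.260, 0.0136, 0.00479 and -0.140 in the omf201 samples and -0.597, -0.517, -0.509 and -0.676 in the WT samples. The omf201 samples were therefore later than all WT samples in the outer bin and earlier than all of them in the inner one. In the bin from 20 to 22 Mb omf201 averaged 0.113 ± 0.112 and WT -0.223 ± 0.0982 (SD, n = 4 each), and 81 of 198 windows were higher.

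At 24 hpf 2004 windows were called (73.5%, against 73.3% of all windows), 943 higher in omf201 (34.6%, against 37.8%) and 1061 lower (38.9%, against 35.5%). The median difference was -0.05 over the arm and 0.02 over all windows. Groups did not overlap in 11 of 14 bins (against 65% of bins genome-wide), 6 with omf201 higher and 5 lower. The bin from 0 to 2 Mb had the largest difference on z-scores, -1.20, while on median-centred log2 values it had -0.185 and the bin from 26 to 28 Mb 0.195. It had -0.480, -0.464, -0.489 and -0.587 in the omf201 samples and 0.625, 0.708, 0.791 and 0.671 in the WT samples, and 138 of its 168 windows were lower.

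Further in, differences of both directions alternated at 24 hpf. The bin from 8 to 10 Mb averaged 0.351 ± 0.0588 in omf201 and 0.884 ± 0.0333 in WT, with 138 of 196 windows lower. The bin from 20 to 22 Mb averaged 0.150 ± 0.0327 in omf201 and -0.418 ± 0.0346 in WT, with 126 of 198 windows higher and 0 lower. In the bin from 26 to 28 Mb the omf201 mean was -0.450 ± 0.0735 and the WT mean -1.03 ± 0.0492 (SD, n = 4 each), and 158 of 187 windows were higher. Bin means can hide such alternation: from 24 to 26 Mb 94 windows were higher and 85 lower, together 90.4% of the bin, while its mean differed by 0.242.

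**Figure D3:**
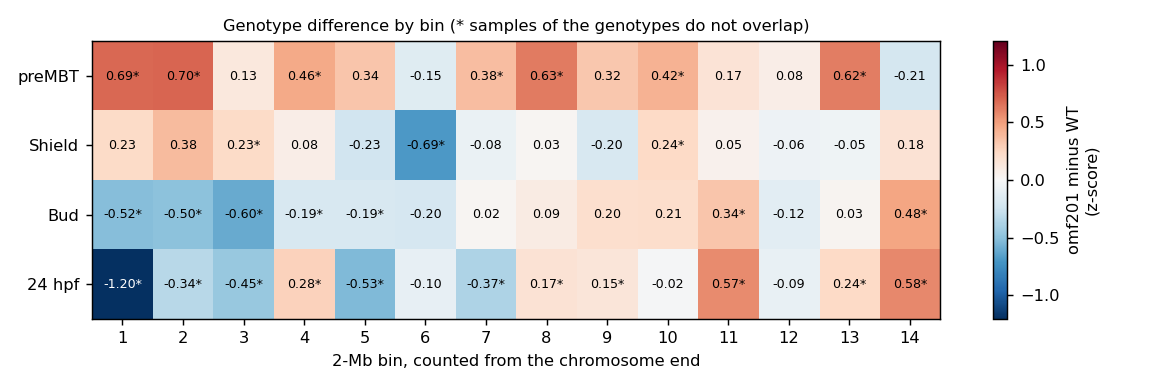
Difference in mean z-score, omf201 minus WT, in each 2-Mb bin (columns, counted from the chromosome end) at each stage (rows); an asterisk marks bins in which the samples of the genotypes do not overlap. The first 3 bins are positive at preMBT and Shield and negative at Bud and 24 hpf, where the last bin is positive (on median-centred log2 values the first and the third bin turned to -0.0228 and -0.00335 at Shield).

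The longest run lower in omf201 at 24 hpf, chr4:1320000-2770001 with 138 windows, overlapped the longest lower run at Bud, chr4:1430000-2770001 with 129 windows. Each was chosen by the calls of its own stage, so its genotype difference at that stage is a description. The Bud run averaged 2.20 ± 0.223 in omf201 and 1.93 ± 0.0754 in WT at Shield, where it was among the earliest stretches of the arm in both. At Bud it averaged 0.224 ± 0.146 in omf201 and 1.26 ± 0.105 in WT, and at 24 hpf -0.400 ± 0.0317 in omf201 and 1.16 ± 0.0745 in WT (SD, n = 4 each). This stretch stayed early in WT and had a late mean in omf201 by 24 hpf.

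The longest run higher in omf201 at Bud was chr4:23840000-25090001 with 120 windows. At Bud it averaged 0.448 ± 0.0676 in omf201 and -0.254 ± 0.0403 in WT. At 24 hpf it averaged 1.17 ± 0.0552 in omf201 and 0.216 ± 0.0451 in WT (SD, n = 4 each), and 94 of its windows were higher and 12 lower. Its Bud calls chose it, so its Bud difference is a description. The 24 hpf calls did not enter its choice, but both stages share the G1 reference of each genotype. At 24 hpf called windows formed 17 higher runs with a median length of 0.470 Mb and 19 lower runs with a median of 0.630 Mb.

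Whether the genotype difference itself changed between stages was tested with the interaction of genotype and stage. From preMBT to Shield it was called in 175 windows (6.42%, against 8.94% of all windows), 27 higher and 148 lower (against 4.5% of all windows higher and 4.44% lower). Here higher means that the signed difference, omf201 minus WT, rose from the first stage to the second, and lower that it fell. From Shield to Bud it was called in 965 windows (35.4%, against 25.5%), 429 higher and 536 lower (against 12.6% higher and 12.9% lower), and the arm ranked 2 of 25 units by this share. From Bud to 24 hpf it was called in 837 windows (30.7%, against 26.4%), 449 higher and 388 lower (against 13.1% higher and 13.3% lower), and the arm ranked first of 25. On unsmoothed ratios the shares of the arm's windows were 0.404%, 2.20% and 4.70%, and on log2 values the first and the last were 33.4% and 49.7%. Shares of all windows are not given for these settings, so whether the arm's ranks held there is not shown.

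The first 6 Mb carried most of the lower calls from Shield to Bud. In the first 3 bins 338 of 562 windows were lower and 0 were higher, while in the other 11 bins 198 were lower and 429 higher. In the bin from 0 to 2 Mb the difference fell again from Bud to 24 hpf, with 110 of its 168 windows called lower and 0 higher. From 2 to 6 Mb the later step ran mostly upwards: 54 windows were higher and 17 lower from 2 to 4 Mb, and 43 were higher and 0 lower from 4 to 6 Mb. Of these 3 bins, the one at the chromosome end was the only one with lower and no higher calls at both steps.

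The steps within each genotype give the same values from the other side. From preMBT to Shield 1512 windows changed in omf201 (55.5%, against 57.8% of all windows), 1229 higher at Shield and 283 lower (against 29% of all windows higher and 28.8% lower). In WT 1734 changed (63.6%, against 65.4%), 1571 higher and 163 lower (against 32.6% higher and 32.9% lower). The share of higher among calls in WT was 90.6% and moved to 72.9% on log2 values.

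From Shield to Bud 1874 windows changed in omf201 (68.8%, against 55.5%), 790 higher at Bud and 1084 lower (against 26.4% higher and 29% lower). In WT 1563 changed (57.4%, against 53.6%), 686 higher and 877 lower (against 25.7% higher and 27.9% lower). In the first 6 Mb 449 windows were lower and 0 higher in omf201, against 238 lower and 60 higher in WT. From Bud to 24 hpf 1805 windows changed in omf201 (66.2%, against 54.9%), 889 higher and 916 lower (against 26.7% higher and 28.2% lower). In WT 1702 changed (62.5%, against 61.6%), 790 higher and 912 lower (against 30.7% higher and 30.8% lower). At both later steps the omf201 share of the arm was the highest of the 25 units on smoothed z-scores. Shares of the other units are not given for other settings, so whether these ranks held there is not shown.

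Peaks and valleys of the arm were taken from the mean WT profile at 24 hpf, as windows with no higher or lower neighbour within 500 kb. There were 17 peaks, with a median spacing of 1.22 Mb, and 18 valleys, with a median spacing of 1.29 Mb. Because WT values at 24 hpf chose them, their genotype difference at that stage is a description. The WT profiles of other stages share the G1 reference, and across the arm the WT Bud profile had a correlation of 0.771 with the WT profile at 24 hpf. Genotype differences of these windows at other stages are therefore not independent of the choice either. At 24 hpf the peaks had a median of 0.941 in omf201 and 1.18 in WT, and 11 of 17 lay above 0 in omf201. The valleys had a median of -0.412 in omf201 and -0.639 in WT.

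The 3 highest WT peaks, with centres at 18730000, 12810000 and 16840000, were high in both genotypes at 24 hpf. The first had 2.03 ± 0.106 in omf201 and 1.87 ± 0.0810 in WT, the second 2.12 ± 0.0434 in omf201 and 1.84 ± 0.112 in WT, and the third 1.54 ± 0.137 in omf201 and 1.80 ± 0.108 in WT (SD, n = 4 each). None of these 3 windows was called at preMBT, Shield or Bud. At preMBT all 3 were late, from -1.21 to -0.492 in omf201 and from -1.07 to -0.429 in WT.

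The 3 deepest WT valleys had centres at 26690000, 23430000 and 3760000. At 24 hpf they stood at -0.923 ± 0.108, -0.636 ± 0.0741 and -0.618 ± 0.0976 in omf201, and at -1.79 ± 0.0770, -1.51 ± 0.0614 and -1.31 ± 0.118 in WT (SD, n = 4 each). The valley at 26690000 was already deep at Shield, at -2.54 ± 0.108 in omf201 and -2.58 ± 0.256 in WT, with an adjusted limma p of 0.855. At Bud it stood at -1.61 ± 0.323 in omf201 and -2.11 ± 0.113 in WT, with an adjusted limma p of 0.0340, and the samples overlapped.

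The valley at 23430000 differed at Bud, with 0.242 ± 0.292 in omf201 and -0.685 ± 0.158 in WT, a difference of 0.927 with an SE of 0.179 and an adjusted limma p of 0.000606. The valley at 3760000 differed at the early stages. At preMBT it had 1.40 ± 0.760 in omf201 and -0.149 ± 0.0408 in WT, and at Shield -0.107 ± 0.112 in omf201 and -0.948 ± 0.0816 in WT. At Bud it stood at -1.33 ± 0.182 in omf201 and -1.23 ± 0.220 in WT, with an adjusted limma p of 0.649.

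Across the 2725 windows the mean profiles of omf201 and WT had a Pearson correlation of 0.909 at Shield, their highest, and of 0.549 at 24 hpf, their lowest, with 0.668 at preMBT and 0.684 at Bud between them. Over the other chromosomes the values were 0.896 at Shield, 0.704 at 24 hpf, 0.590 at preMBT and 0.817 at Bud. Within omf201 the Shield and 24 hpf profiles of the arm had a correlation of -0.0799, against 0.584 within WT. Over the other chromosomes this correlation was also lower in omf201, at 0.214 against 0.634 in WT. These correlations are across overlapping windows, which are not independent, and profiles of a genotype share their G1 reference, so they describe likeness only.

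The last window inside the 28-Mb limit and the first outside had nearly the same values. For example, they stood at 0.597 and 0.596 in omf201 and -0.0896 and -0.0503 in WT at 24 hpf. These windows overlap for most of their length and the profile is smoothed, so they cannot show whether timing changed at the limit. The longest run higher in omf201 at 24 hpf, chr4:26300000-28020001 with 158 windows of the arm, went on for 9 windows beyond the limit, to 28110001. In that run omf201 averaged -0.404 ± 0.0731 and WT -1.20 ± 0.0479 at 24 hpf, and omf201 -0.0323 ± 0.100 and WT -0.768 ± 0.101 at Bud (SD, n = 4 each). The longest higher run at Shield, chr4:27400000-28020001 with 57 windows, ended at the limit. It averaged 0.742 ± 0.267 in omf201 and 0.0639 ± 0.0564 in WT at Shield, and 54 of its windows were also higher at Bud. These runs were each chosen by the calls of the stage they are named for, so their differences at that stage are descriptions.

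In 1-Mb pieces, omf201 at 24 hpf stood at -0.753 from 26 to 27 Mb, -0.186 from 27 to 28 Mb, -0.426 from 28 to 29 Mb and -1.57 from 29 to 30 Mb. The WT means of these pieces were -1.02, -1.04, -0.508 and -1.41. At Shield the piece from 28 to 29 Mb was early in both, at 1.34 in omf201 and 1.25 in WT. The piece from 27 to 28 Mb was less early at Shield, at 0.599 in omf201 and 0.181 in WT. The first gap over 100 kb on the long arm followed position 31220000, so the limit lay inside a mappable stretch. Over the whole long arm the mean z-score at 24 hpf was -1.36 ± 0.123 in omf201 and -1.34 ± 0.0449 in WT (SD, n = 4 each).

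**Figure D4:**
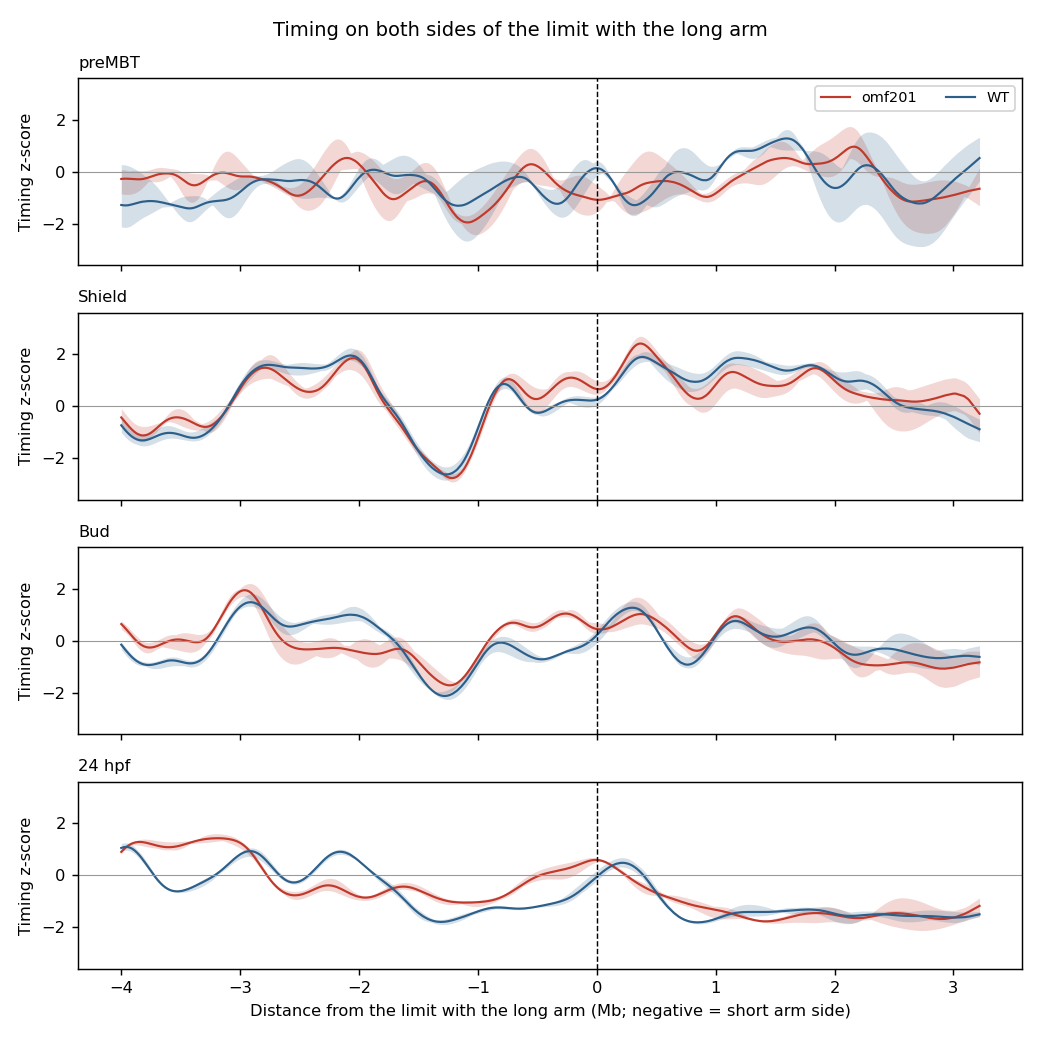
Mean z-score on both sides of the limit with the long arm, against the distance from it in Mb (negative is the short arm side), for omf201 (red) and WT (blue); shading runs from the lowest to the highest sample and the dashed line marks the limit. The smoothed lines run on across the limit, and at 24 hpf both genotypes lie lower at the right edge than at the limit.

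The G1 reads, which set the copy number that all profiles are divided by, were called different in a small share of the arm's windows. The median absolute G1 difference between genotypes there was 0.0341 at Bud and 0.0275 at 24 hpf on the log2 scale. The SD of preMBT timing within the arm was of similar size, 0.0325 in omf201 and 0.0318 in WT, also on the log2 scale. The quasi-likelihood test of edgeR called 25 windows at Bud (0.917%, against 2.70% of all windows), 11 higher in omf201 and 14 lower (against 1.16% and 1.54%). At 24 hpf it called 55 (2.02%, against 3.67%), 26 higher and 29 lower (against 1.91% and 1.76%). Together 68 windows, 2.50% of the arm, were called at either stage and 12 at both, all 12 in the same direction. For these overlaps the shares of all windows are not given, so they cannot be set against the genome. None of the 68 windows lay in the bin from 0 to 2 Mb. The largest absolute G1 difference in that bin was 0.105 at Bud and 0.088 at 24 hpf on the log2 scale. The bin from 4 to 6 Mb held 7 of the windows called higher in omf201 G1 at Bud and 1 called lower. At 24 hpf it held 15 higher and 0 lower. The largest called stretch, chr4:4100000-4250001 with 8 windows, averaged 0.18 at Bud and 0.26 at 24 hpf on the log2 scale, omf201 over WT. Without these 68 windows the difference of the arm's mean was 0.318 at preMBT, -0.0580 at Bud and -0.0672 at 24 hpf.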

How the data were processed

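Whole-genome sequencing counts of 49 libraries were used, 33 for profiles and 16 from G1 nuclei. The authors deposited whole counts per window, ratios to G1 (a library's mean-scaled count over the median of the 8 G1 libraries of its genotype), smoothed ratios, log2 values and z-scores, a score made by the authors from each library's mean and SD; each was recomputed here from the counts, with a largest z-score difference of 1.85e-05. The submitters' processing notes name fastp, BWA, Picard and GRCz11, and the series text names RepliTimer v1.0.11. A cubic smoothing spline (penalty 1e+16 bp cubed, broken at gaps over 200 kb) returned the deposited signal.

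Windows were tested with limma 3.58.1 (R 4.3.3) on z-scores, adjusted over all 120059 windows, and G1 counts with edgeR 4.0.16 (TMM, mean count of at least 10). In simulated 24 hpf data with independent noise in each window, limma recovered 94.5% of windows changed by 1 z-score, with 12 false calls. Real windows overlap and are smoothed, and no other stage was simulated, so this rate does not carry over to them. Sample values were compared by exact permutation tests. DESeq2 1.42.0, other scales, unsmoothed ratios, a common G1 reference, left-out replicates and replicate blocks were alternatives. Same-numbered samples did not deviate together (r -0.0587 to 0.104), so numbers were not taken as pairs. Regions named were fixed bins, the longest runs, the 3 highest peaks and 3 lowest valleys, and windows at the limit. The region and these rules were chosen with earlier results of these data known. The gene table at hand is of another genome build, so no gene was placed on a window.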

Additional observations from a re-analysis of the deposited data

Results flagged for a closer look

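In 5 of 96 groups of 4 samples, 1 sample lay far from the other 3, which is 5.21% where chance flags about 5%. At Shield, omf201 replicate 5 had a mean z-score of 1.92 in the bin from 0 to 2 Mb, against 1.44 to 1.51 in the other omf201 samples. At Shield, omf201 replicate 3 had 1.18 in the bin from 4 to 6 Mb, against 0.874 to 0.919, and 0.0639 in the bin from 18 to 20 Mb, against 0.194 to 0.211. At Bud, omf201 replicate 3 had 0.377 in the bin from 10 to 12 Mb, against -0.138 to -0.0532. At 24 hpf, WT replicate 3 had 1.05 in the bin from 16 to 18 Mb, against 1.15 to 1.17.

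In part of the arm's windows the genotype difference itself changed between successive stages, by the interaction test of limma. From preMBT to Shield it did so in 6.42% of the arm's windows, a smaller share than the 8.94% of all windows. It did so in 35.4% from Shield to Bud (against 25.5%) and in 30.7% from Bud to 24 hpf (against 26.4%). Leaving out single samples gave 2.79% to 9.98% for the step from preMBT to Shield. On unsmoothed ratios the arm's shares were far lower at every step, as given below. The step from Shield to Bud changed the stage and the kind of sample together, so their effects cannot be told apart.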

How the results depend on the processing

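Values are shares of the arm's windows called unless said otherwise, and the matching shares of all windows are not given for these settings. Unsmoothed ratios, which carry the full counting error of a window, gave 2.72% at preMBT, 12.7% at Shield and 14.7% at Bud for the genotypes. For the steps they gave 29.8%, 29.9% and 28.5% in omf201 in order of stage, and 29.2% (Shield to Bud) and 30.8% (Bud to 24 hpf) in WT. For the interactions they gave 0.404%, 2.20% and 4.70%. Log2 values and median-centred log2 values gave 52.6% and 51.6% at Shield, with 39.1% and 41.7% of calls higher against 52.7% on z-scores. They gave 33.4% and 32.8% for the first interaction and 49.7% and 47.8% for the last. The higher share of calls also moved for the step to Shield in WT (90.6% to 72.9% and 72.3%), for the step to 24 hpf on centred values (49.3% to 64.2% in omf201, 46.4% to 59.5% in WT) and for the interactions from Shield (44.5% to 31.6% on log2 values) and from Bud (53.6% to 66.5%). One fit of all groups gave 38.4% at preMBT, 37.5% and 35.6% for the later WT steps, and 21.2% and 11.2% for the first and last interactions. Shield libraries taken singly gave 12.8% for the first interaction. With edgeR on counts, which were not divided by G1, the preMBT share was 2.28%. DESeq2 called 0.183% of the arm's windows in G1 at Bud and 0.844% at 24 hpf. The cause was not tested beyond how each setting is built.

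The arm's mean difference at Shield turned to -0.00652 on centred log2 values, -0.0225 on unsmoothed ratios and -0.00975 with a common G1 reference, all far from the threshold by the exact permutation test or, on centred values, at p = 0.0571. At Bud it was -0.000519 on centred values and -0.0580 without windows called in G1. At 24 hpf it was 0.0176 on centred values. The step from Shield to Bud in omf201 was -0.00390 on centred values. The step to 24 hpf turned to 0.0373 on centred values, 0.0137 unsmoothed and 0.0242 below 25 Mb in omf201, and to 0.0192, 0.00829 and 0.0353 in WT. The SD difference turned to -0.00291 unsmoothed at preMBT, and in z-scores to 0.0130 at Shield and 0.0245 at 24 hpf. On centred log2 values the difference turned to -0.0228 from 0 to 2 Mb and -0.00335 from 4 to 6 Mb at Shield, 0.00385 from 6 to 8 Mb and -0.0133 from 12 to 14 Mb at Bud, 0.0263 from 10 to 12 Mb and 0.0187 from 18 to 20 Mb at 24 hpf, 0.00993 and 0.0405 from 22 to 24 Mb at Bud and 24 hpf, and 0.0437 at 24 hpf in the longest lower run of Shield. With a common G1 reference it turned to -0.184 from 6 to 8 Mb, -0.291 from 16 to 18 Mb, -0.127 from 18 to 20 Mb and 0.243 from 26 to 28 Mb at preMBT, to -0.184 from 6 to 8 Mb, -0.0940 from 14 to 16 Mb and 0.0508 from 22 to 24 Mb at Shield, and to -0.00120 from 14 to 16 Mb at Bud. Unsmoothed ratios turned it to -0.0370 from 12 to 14 Mb at Bud and 0.00503 from 18 to 20 Mb at 24 hpf.

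Leaving out 1 sample at a time gave 4.44% to 6.28% at preMBT, where any of the 6 samples lowered the share by over 1.5 times. It gave 2.79% to 9.98% for the first interaction, 0.514% to 0.771% for G1 at Bud and 0.661% to 1.98% for G1 at 24 hpf, where omf201 replicates 2 and 4 mattered. The arm's mean difference then ran from -0.00513 to 0.0152 at Shield, -0.0759 to -0.0561 at Bud and -0.0737 to -0.0606 at 24 hpf, and the omf201 step to Bud from -0.122 to -0.102. The SD difference ran from -0.0369 to -0.0324 at Shield, -0.0511 to -0.0457 at Bud and -0.0404 to -0.0346 at 24 hpf. With 3 against 4 samples the smallest exact permutation p is 0.0571, so none of these could pass. From 24 to 26 Mb at Bud the difference ran from -0.0355 (without omf201 replicate 4) to 0.0834, and was also negative without WT replicate 2. With the replicate number as a replicate block, 9.69%, 30.0%, 47.3% and 72.2% of the arm's windows were called for the genotypes in order of stage, and 0.991% and 1.76% in G1. For Shield this setting took the libraries unmerged and without WT replicate 6, so its samples differ from those of the main test. Of 19 omf201 samples 4 correlated best with the WT sample of their own number. Depth limits single unsmoothed windows most.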
